A study of Mus musculus with 24 samples.

Results

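Myelin genes were followed in 2 reward regions, the nucleus accumbens (NAc) and ventral tegmental area (VTA), of wild-type and Vdr-/- mice. The 9 genes are Mbp, Mobp, Mal, Cldn11, Cnp, Ermn, Mag, Mog and Opalin, taken by gene symbol from a total of 30270 genes measured, and all 9 were present in every table and passed the filter on low values in each comparison. Libraries of mRNA were made from frozen bilateral punches of 1.5 mm from 12 mice on a C57BL/6 background, with both regions of each mouse sequenced, which gives 24 libraries in 8 groups of 3. The mice were wild-type (VDR+/+) or lacked the vitamin D receptor in all tissues (VDR-/-), and 90 min before tissue collection they had been injected intraperitoneally with either PBS or morphine (5 mg/kg). The study asked how loss of vitamin D signaling changes the response of reward regions to an opioid. In both genotypes PBS was the control injection. The PBS mice and the morphine mice carry numbers of 2 different forms, and whether they were handled and sequenced together is not given in the sources used here. Effects of injection and of handling or batch may therefore not be separable. Vdr-/- mice were raised on a diet enriched in calcium and lactose, and the diet of the wild-type mice is not given in the sources used here, so effects of genotype and of diet may not be separable. The accumbens punch was centred on the anterior commissure, a white matter tract, and the amount of tract in each punch was not measured.

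In the brain, myelin is made by oligodendrocytes, which wrap axons in many layers of their own membrane. The cytoplasm is squeezed out between most of these layers (compact myelin), while channels of cytoplasm remain at the edges, and separate proteins serve the layer next to the axon and the outer surface. The mRNAs of these proteins are among the most abundant of mature oligodendrocytes, and they rise together when a precursor cell matures.

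Libraries held 9328726 to 30184426 reads on genes (median 16779764), and the 9 genes together took 0.274% to 0.929% of them. Vdr, the targeted gene, had 0 to 17 reads per library with no lower level in the Vdr-/- libraries, and gives no check of the genotype labels. Markers of each region were present as labelled: 12 genes of medium spiny neurons summed to 2323 CPM (reads scaled to the library total) or more in every accumbens library and to 309 CPM or less in every VTA library, and 12 genes of dopamine neurons, among which Foxa2 had 0 reads in the accumbens, summed to 107 CPM or less in the accumbens and to 284 to 3595 CPM in the VTA. A list of 8 Schwann cell genes, the myelinating cells of peripheral nerve, of which 7 were measured, summed to 105 to 165 CPM in the 24 libraries. In bulk tissue, fewer oligodendrocytes and less RNA per oligodendrocyte cannot be told apart. The strand setting of the counting is not given in the sources used here, so reads of Cnp and Dnajc7, and of Ermn and Galnt5, which overlap on opposite strands, and of Mobp and Gm38642, which overlap on 1 strand, may not be fully separated.

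The sequences before the start sites of 5 of the genes are shown, 4 that hold the SOX motif named here and 1, Ermn, that holds none of the 3 motifs searched first and that varied least with the other myelin genes. A RefSeq promoter (mouse build GRCm38.p6) was matched for 8 of the 9 genes, in 10 windows of 250 bases before the start, and each stretch below ends at the last base before the gene's first annotated start, written from 5′ to 3′ on the gene's strand. Capitals mark matches on either strand to ACAAAG (bound by SOX factors such as SOX10), CTGGNAC (a broad pattern for MYRF, the regulator of myelin genes) and CAGNTG (the E-box of OLIG2 and other basic helix-loop-helix factors). N stands for any base, so not every marked stretch need be one that the factor binds.
Mobp: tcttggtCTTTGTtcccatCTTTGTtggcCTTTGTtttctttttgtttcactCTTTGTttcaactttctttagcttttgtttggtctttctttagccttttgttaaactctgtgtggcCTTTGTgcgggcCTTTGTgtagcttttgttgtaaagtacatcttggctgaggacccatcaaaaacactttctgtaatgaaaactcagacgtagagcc
Cnp: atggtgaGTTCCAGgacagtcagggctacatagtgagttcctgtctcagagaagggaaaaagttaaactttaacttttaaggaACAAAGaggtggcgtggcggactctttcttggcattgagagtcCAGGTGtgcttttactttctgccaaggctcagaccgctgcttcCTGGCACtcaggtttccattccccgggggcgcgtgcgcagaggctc
Mag: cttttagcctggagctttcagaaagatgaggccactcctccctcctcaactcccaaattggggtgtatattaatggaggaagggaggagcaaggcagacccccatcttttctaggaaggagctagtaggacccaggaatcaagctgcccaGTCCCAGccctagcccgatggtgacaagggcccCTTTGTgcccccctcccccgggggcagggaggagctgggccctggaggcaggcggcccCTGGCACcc
Opalin: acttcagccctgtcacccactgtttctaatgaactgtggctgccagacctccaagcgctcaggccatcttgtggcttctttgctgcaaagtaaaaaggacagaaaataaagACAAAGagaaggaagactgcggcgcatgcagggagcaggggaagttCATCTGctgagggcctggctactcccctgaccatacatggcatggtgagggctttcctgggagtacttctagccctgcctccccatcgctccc
Ermn: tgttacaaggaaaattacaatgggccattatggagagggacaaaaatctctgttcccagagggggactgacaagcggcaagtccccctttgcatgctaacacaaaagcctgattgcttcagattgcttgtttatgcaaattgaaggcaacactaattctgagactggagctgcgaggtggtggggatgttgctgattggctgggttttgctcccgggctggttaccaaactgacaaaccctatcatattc
They lie at chr9:120149492-120149706 on the plus strand (Mobp, 215 bases), chr11:100574689-100574903 on the plus strand (Cnp, 215 bases), chr7:30914923-30915172 on the minus strand (Mag, 250 bases), chr19:41077114-41077363 on the minus strand (Opalin, 250 bases) and chr2:58052865-58053114 on the minus strand (Ermn, 250 bases). In the full windows ACAAAG or its complement CTTTGT was present for 4 of the 8 genes (Mobp, Cnp, Mag and Opalin). Counted by window it was in 5 of 10, against 16.5% of 32851 RefSeq promoters of the same length. Mobp had 6 such matches. Cldn11 and Mal, which are not shown, likewise held none of these 3 motifs, while their levels varied with those of the other myelin genes. CTGGNAC was present for 3 genes (Cnp, Mag and Mog), in 4 of 10 windows against 16.1% of all promoters. CAGNTG was present for 3 (Cnp, Mag and Opalin), in 3 of 10 windows against 44.8%. Windows of Mag overlap, so its matches to ACAAAG and CTGGNAC are counted more than once. The CAGNTG match of Mag lies in another window of that gene, not in the stretch shown. The other SOX form AACAAT and the TATA box TATAAA occurred in none of the windows of these genes, against 9.42% and 12.4% of all promoters, while the GC box GGGCGG occurred in 1 window, that of Cnp, against 32.7%. The DR3 vitamin D response element was found in none of them, against 0.0396% of all promoters. These matches describe the letters only.

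Levels are given in RPKM (reads per kilobase of exon, scaled to the library's reads on genes) in the order of the mouse numbers: wild-type mice 1, 2 and 3 and Vdr-/- mice 7, 8 and 9 received PBS, and wild-type mice 1.0, 1.1 and 1.2 and Vdr-/- mice 2.0, 2.1 and 2.2 received morphine.

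Of the genes of compact myelin, Mbp encodes myelin basic protein, which joins the inner faces of the membrane layers (chromosome 18, 82475146 to 82585637, plus strand). Its level in the VTA was 572, 615 and 564 RPKM in wild-type and 542, 570.0 and 547 in Vdr-/- mice given PBS. With morphine it was 284, 465 and 313 in wild-type and 417, 379 and 407 in Vdr-/- mice. All PBS libraries of the VTA thus lay above all its morphine libraries, and wild-type mouse 1.1 stood well above mice 1.0 and 1.2. In the accumbens Mbp was at 268, 231 and 212 RPKM in wild-type and 185, 192 and 197 in Vdr-/- mice given PBS, and at 197, 221 and 185 (wild-type) and 173, 181 and 176 (Vdr-/-) with morphine. Every accumbens library was below every VTA library, and the Vdr-/- morphine group was below the other 3 accumbens groups.

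Mobp encodes a small basic protein of compact myelin (chromosome 9, 120149707 to 120181484, plus strand). Its VTA levels were 286, 272 and 247 RPKM in wild-type and 336, 269 and 319.5 in Vdr-/- mice given PBS, and 129.9, 246 and 150.3 (wild-type) and 202, 185 and 195 (Vdr-/-) with morphine. The lowest PBS library (wild-type mouse 3, 247) was next to the highest morphine library (wild-type mouse 1.1, 246). Accumbens levels were 147, 93.4 and 91.5 RPKM in wild-type and 110.0, 93.5 and 109 in Vdr-/- mice given PBS, and 91.6, 116 and 85.6 (wild-type) and 83.8, 92.3 and 82.7 (Vdr-/-) with morphine. There the ranges of neighbouring groups overlapped, the PBS libraries of Vdr-/- mice were just above their morphine libraries, and wild-type PBS mouse 1 was far above the rest.

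Mal encodes a proteolipid that sorts membrane components to myelin (chromosome 2, 127633226 to 127656695, minus strand). In the VTA it was at 192, 164 and 149 RPKM in wild-type and 230.0, 164 and 229.8 in Vdr-/- mice given PBS, and at 91.2, 168 and 104 (wild-type) and 136, 118 and 129 (Vdr-/-) with morphine. Wild-type morphine mouse 1.1 lay within the range of the PBS libraries, and Vdr-/- PBS mouse 8 was well below mice 7 and 9. In the accumbens it was at 119, 86.5 and 72.9 RPKM in wild-type and 87.6, 73.95 and 87.2 in Vdr-/- mice given PBS, and at 72.3, 95.5 and 71.9 (wild-type) and 65.98, 70.4 and 66.3 (Vdr-/-) with morphine, with the Vdr-/- morphine group below the other groups and mouse 8 again below mice 7 and 9.

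Cldn11 encodes claudin 11, which forms the tight junctions between the layers of myelin (chromosome 3, 31149920 to 31164324, plus strand). VTA levels were 132, 128 and 121 RPKM in wild-type and 136, 136 and 132 in Vdr-/- mice given PBS, and 69.7, 114 and 78.4 (wild-type) and 96.6, 93.7 and 104 (Vdr-/-) with morphine, without overlap between the injections. Accumbens levels were 77.4, 64.98 and 54.7 RPKM in wild-type and 53.97, 54.05 and 51.9 in Vdr-/- mice given PBS, and 51.8, 62.2 and 50.9 (wild-type) and 48.8, 52.6 and 51.2 (Vdr-/-) with morphine. Neighbouring accumbens groups overlapped for this gene.

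Of the genes whose proteins lie in the cytoplasm of myelin, Cnp encodes the phosphodiesterase that keeps the cytoplasmic channels open (chromosome 11, 100574904 to 100591729, plus strand). It was at 174, 164 and 155 RPKM in wild-type and 196, 152 and 183 in Vdr-/- mice in the VTA with PBS, and at 89.4, 137 and 89.5 (wild-type) and 116, 105 and 113 (Vdr-/-) with morphine. The injections did not overlap in the VTA. In the accumbens it was at 97.1, 85.8 and 74.8 RPKM in wild-type and 70.8, 66.6 and 69.95 in Vdr-/- mice given PBS, and at 64.2, 73.6 and 58.04 (wild-type) and 54.8, 60.6 and 55.6 (Vdr-/-) with morphine, and the wild-type PBS group lay above the other 3 groups.

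Ermn encodes ermin, a protein that binds the actin skeleton of the oligodendrocyte's processes and appears late in maturation (chromosome 2, 58045113 to 58052864, minus strand). In the VTA its level was 45.4, 50.6 and 44.2 RPKM in wild-type and 34.1, 39.8 and 35.4 in Vdr-/- mice given PBS, and 24.7, 37.98 and 26.8 (wild-type) and 35.5, 32.6 and 32.6 (Vdr-/-) with morphine. The wild-type PBS group was highest, and the Vdr-/- groups overlapped each other. In the accumbens it was 22.00, 16.7 and 16.2 RPKM in wild-type and 11.3, 14.6 and 11.5 in Vdr-/- mice given PBS, and 16.95, 15.6 and 15.95 (wild-type) and 15.4, 15.1 and 14.7 (Vdr-/-) with morphine. Here the Vdr-/- PBS group was lowest, and mouse 8, low for Mobp, Mal and Cnp, was above mice 7 and 9 in both regions.

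Of the surface proteins, Mag encodes myelin-associated glycoprotein, an adhesion protein of the layer that faces the axon (chromosome 7, 30899176 to 30914873, minus strand). Its level in the VTA was 128, 127 and 121 RPKM in wild-type and 122, 111 and 130.0 in Vdr-/- mice given PBS, and 55.5, 97.01 and 62.3 (wild-type) and 76.2, 68.4 and 79.7 (Vdr-/-) with morphine. The injections did not overlap in the VTA. Its level in the accumbens was 56.5, 51.3 and 45.03 RPKM in wild-type and 36.6, 39.3 and 39.9 in Vdr-/- mice given PBS, and 38.8, 44.1 and 35.9 (wild-type) and 31.5, 35.1 and 34.5 (Vdr-/-) with morphine. Wild-type PBS libraries were highest and Vdr-/- morphine libraries lowest, each apart from the other groups.

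Mog encodes myelin oligodendrocyte glycoprotein, on the outer surface of the sheath (chromosome 17, 37010743 to 37023398, minus strand). VTA libraries held 77.5, 76.2 and 72.4 RPKM in wild-type and 80.2, 71.7 and 81.2 in Vdr-/- mice given PBS, and 35.2, 59.4 and 36.7 (wild-type) and 50.5, 42.3 and 50.3 (Vdr-/-) with morphine, without overlap between the injections. Accumbens libraries held 39.96, 29.2 and 26.7 RPKM in wild-type and 27.7, 26.2 and 26.1 in Vdr-/- mice given PBS, and 23.4, 30.5 and 23.96 (wild-type) and 21.1, 21.9 and 21.6 (Vdr-/-) with morphine. The Vdr-/- morphine group was again below the other accumbens groups.

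Opalin encodes a glycoprotein of the oligodendrocyte surface (chromosome 19, 41061710 to 41077113, minus strand) and was the least abundant of the 9, with 80 to 1156 reads per library. In the VTA it was at 9.74, 12.6 and 12.04 RPKM in wild-type and 13.9, 9.15 and 13.00 in Vdr-/- mice given PBS, and at 5.14, 7.53 and 5.79 (wild-type) and 6.39, 4.74 and 4.80 (Vdr-/-) with morphine. All PBS libraries were above all morphine libraries. In the accumbens it was at 6.97, 7.62 and 6.36 RPKM in wild-type and 5.28, 4.30 and 5.01 in Vdr-/- mice given PBS, and at 4.97, 5.23 and 3.87 (wild-type) and 3.62, 3.10 and 2.91 (Vdr-/-) with morphine. The wild-type PBS group was the highest and the Vdr-/- morphine group the lowest of the accumbens, without overlap with the groups between them.

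**Figure D1:**
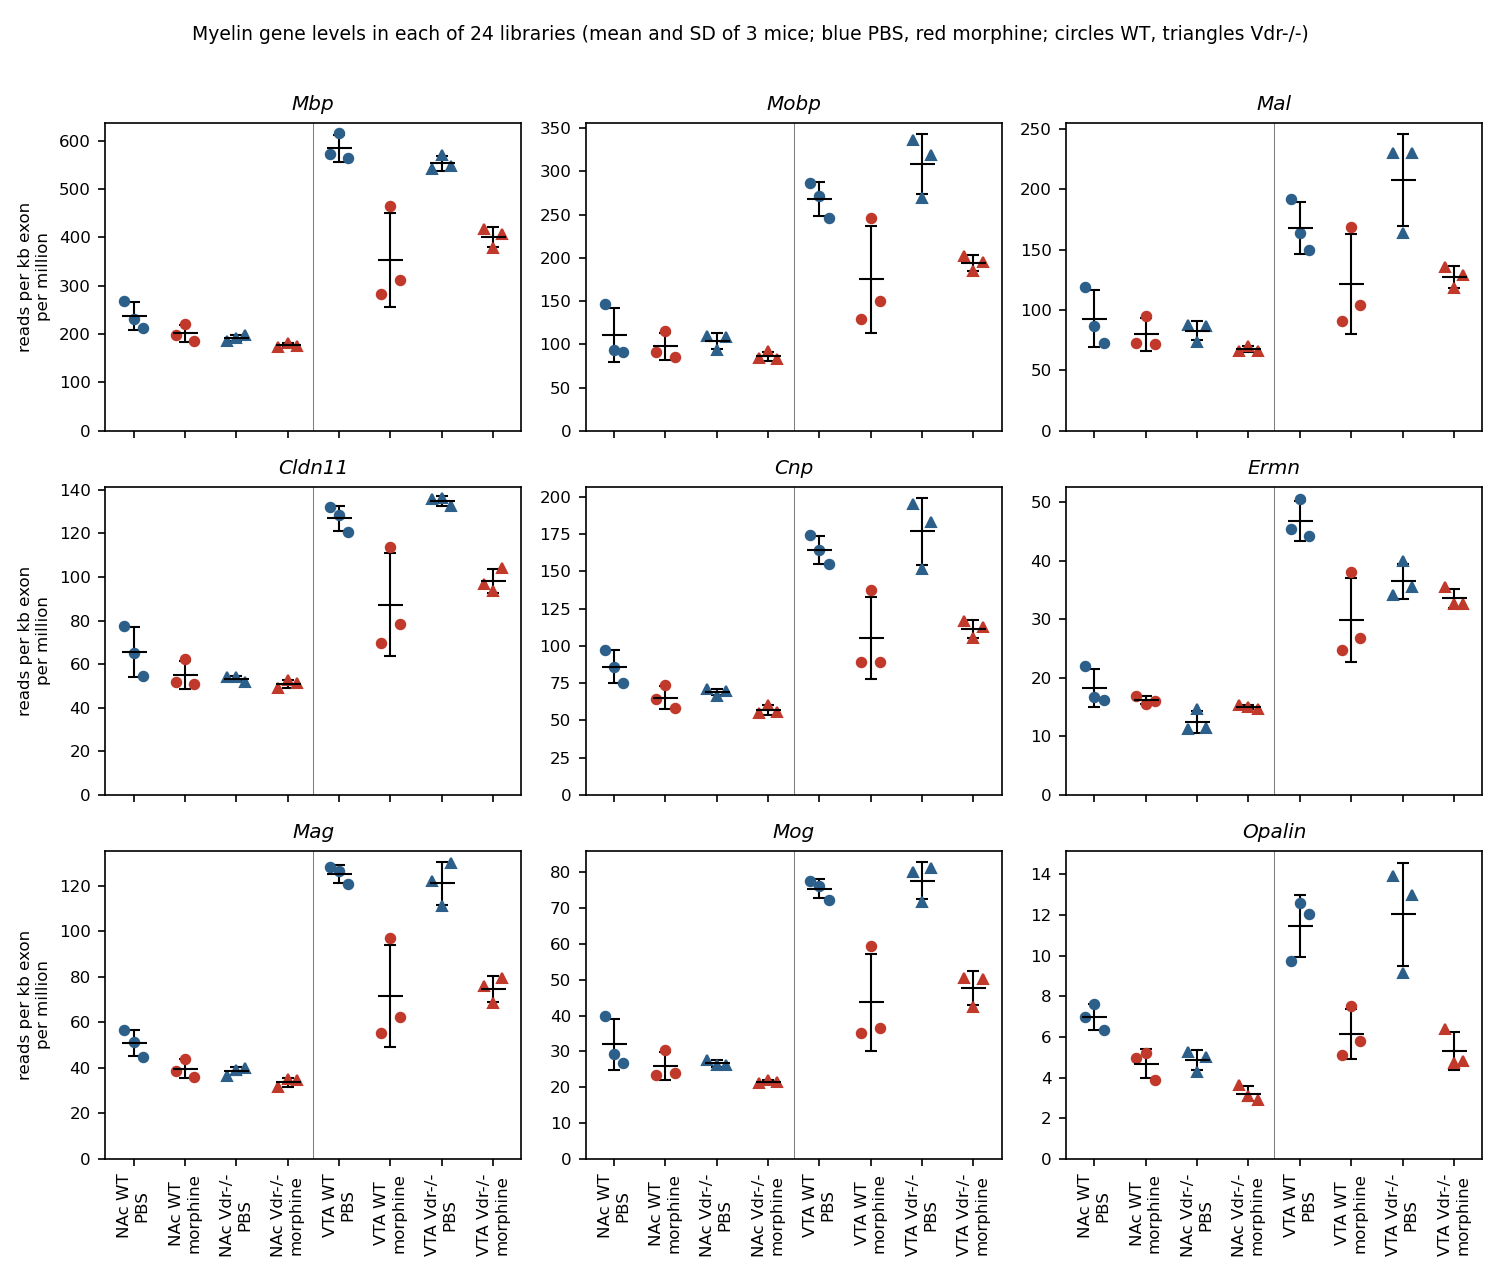
Level of each myelin gene in every library, in RPKM on axes that start at 0, by region, genotype and injection (blue PBS, red morphine, circles wild-type, triangles Vdr-/-), with the mean and SD of 3 mice. For Mbp all 12 VTA libraries (284 to 615 RPKM) lie above all 12 accumbens libraries (173 to 268), and in the VTA the morphine libraries of Mbp sit below the PBS libraries.

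The order of the levels was the same in both regions. It rests on the annotated exon length of each gene, which was the same divisor in both regions. The mean over 12 accumbens libraries was 202 RPKM for Mbp, 99.7 for Mobp, 80.8 for Mal, 69.3 for Cnp, 56.2 for Cldn11, 40.7 for Mag, 26.5 for Mog, 15.5 for Ermn and 4.94 for Opalin. The corresponding VTA means were 473, 236, 156, 139.6, 112, 98.2, 61.1, 36.7 and 8.74 RPKM. Neighbours kept this order within each library with few exceptions: Mal was above Cnp in 11 of 12 accumbens and 10 of 12 VTA libraries, Cldn11 was above Mag in 11 of 12 VTA libraries, and the other neighbours kept their order in 12 of 12. Over the 12 libraries of a region the ranges of most neighbours overlapped: those of Opalin and Ermn were apart in both regions, and those of Mbp and Mobp in the accumbens. Among the 8 groups, both VTA PBS groups had the highest means for all 9 genes, and the Vdr-/- morphine group of the accumbens had the lowest for all but Ermn. For Mbp the means were 584 ± 27.2 RPKM (SD, n = 3) in wild-type PBS and 553 ± 15.0 in Vdr-/- PBS libraries of the VTA, which overlapped, then 401 ± 19.9 in Vdr-/- morphine and 354 ± 97.3 in wild-type morphine libraries of the VTA, which also overlapped. The accumbens followed at 237 ± 28.9 (wild-type PBS), 201 ± 18.4 (wild-type morphine), 192 ± 6.03 (Vdr-/- PBS) and 177 ± 4.06 RPKM (Vdr-/- morphine). For Opalin the wild-type PBS group of the accumbens (6.98 ± 0.631 RPKM) came before both morphine groups of the VTA, and for Ermn the Vdr-/- PBS group of the accumbens was the lowest (12.5 ± 1.88). Mbp alone took 49.4% to 56.4% of the reads on the 9 genes, and Mobp 17.7% to 24.8%.

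All 9 genes were lower in the accumbens than in the VTA of the same mouse. Fold changes are differences of log2(normalized count + 1) with their SE, tested with limma with the mouse as a block and Benjamini-Hochberg adjustment over 16147 genes. Lower values in the accumbens were called (adjusted p under 0.05) for all 9, against 37.8% of all genes tested. The log2 difference was -1.17 ± 0.0535 (SE), adjusted p = 1.08e-09 for Mag and -1.14 ± 0.0571 (SE), adjusted p = 2.26e-09 for Mbp (n = 12 mice), and it was smallest for Opalin (-0.71 ± 0.0582 (SE), adjusted p = 2.13e-07). The median over the 9 genes was -1.10, against -0.02 over all genes. As a ratio of geometric means, the VTA level was 2.25-fold that of the accumbens for Ermn, 2.24-fold for Mag, 2.22-fold for Mobp, 2.20-fold for Mbp, 2.15-fold for Mog, 1.89-fold for Cnp, 1.88-fold for Cldn11, 1.81-fold for Mal and 1.64-fold for Opalin. In an exact sign-flip test over 12 mice (two-sided), 8 of the genes gave p = 0.000488, the smallest this test can give, since they were lower in the accumbens of every mouse. Opalin gave an exact p of 0.000977, with 11 of 12 mice lower and wild-type morphine mouse 1.0 the exception (VTA level 0.982-fold that of the accumbens). All 9 were called in PBS mice alone and in morphine mice alone, choices made after seeing the data. The other genes of this lineage moved the same way: 33 of 33 further genes of myelin and mature oligodendrocytes were lower, led by Klk6, a secreted protease (-2.45), Gjb1, a gap junction protein (-1.53), Hapln2, a matrix protein of the node of Ranvier (-1.53), and Apod, a lipid carrier (-1.52). So were 12 of 12 genes of myelin lipid synthesis and 8 of 9 oligodendrocyte transcription factors, among them Myrf (-1.07). Of 10 genes of newly formed oligodendrocytes, 7 were lower, and of 12 precursor genes 7 were lower and 3 higher, against 35.1% of all genes called higher.

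**Figure D2:**
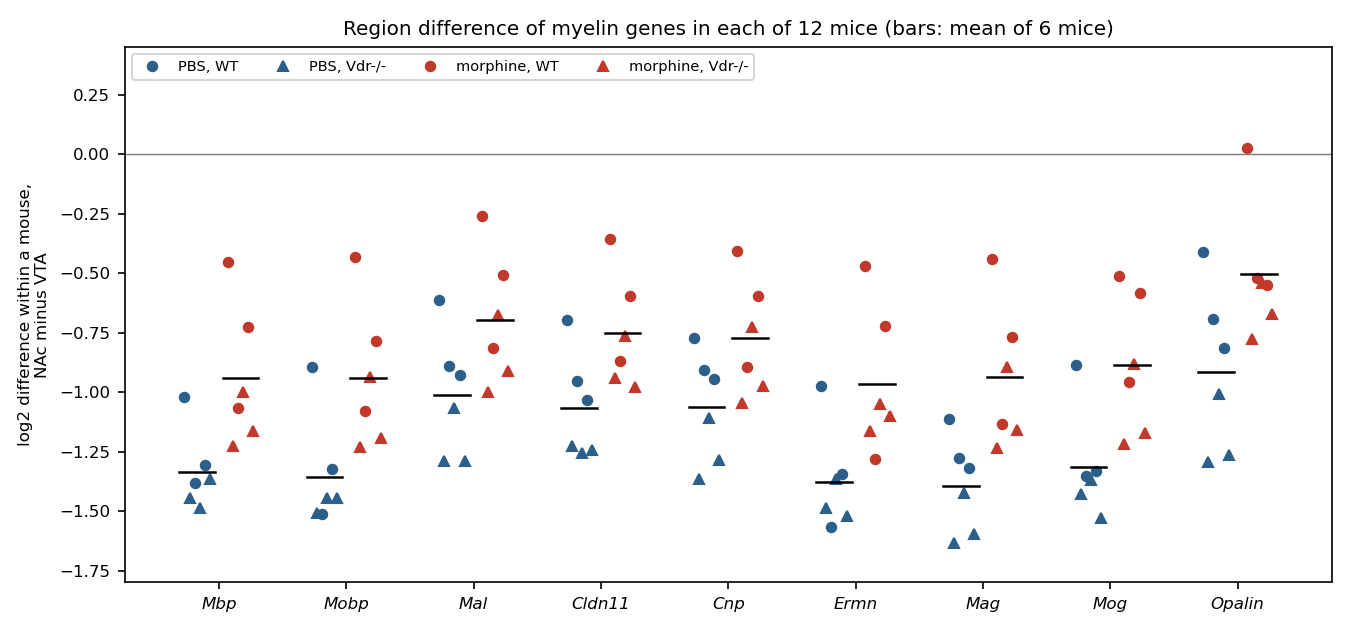
Log2 difference between the accumbens and the VTA of the same mouse (NAc minus VTA, scaled reads + 1) for each of the 9 genes, with PBS mice in blue, morphine mice in red, circles for wild-type and triangles for Vdr-/- mice, and bars at the mean of 6 mice. Points lie below 0 in every mouse except for Opalin in wild-type morphine mouse 1.0 (0.03), and for each gene the mean of the morphine mice is nearer to 0.

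The gap between the regions was smaller with morphine for 5 of the 9 genes. The accumbens minus VTA difference was less negative with morphine for all 9 genes, by 0.46 ± 0.107 (SE), adjusted p = 0.0186 on the log2 scale for Mag, 0.43 ± 0.105 (SE), adjusted p = 0.0222 for Mog, 0.41 ± 0.116 (SE), adjusted p = 0.0401 for Opalin, 0.40 ± 0.114 (SE), adjusted p = 0.0419 for Mbp and 0.32 ± 0.0880 (SE), adjusted p = 0.0360 for Cldn11 (limma, n = 6 mice with each injection). These 5 were called, against 6.26% of all genes called in this direction, and the other 4 had differences of 0.29 (Cnp) to 0.41 (Mobp) with adjusted p from 0.0508 to 0.0594. For Mag the VTA level was 2.63-fold that of the accumbens in PBS mice and 1.92-fold in morphine mice (geometric means), and an exact permutation test of 6 against 6 mice (two-sided, smallest possible p = 0.00216) gave p = 0.0108. For Mbp these ratios were 2.52 and 1.92 with an exact permutation p of 0.0130, and over the 9 genes the exact permutation p ran from 0.0108 to 0.0671 (Mal). The smallest ratio of Mag was 1.36, in wild-type morphine mouse 1.0, and the largest 3.11, in Vdr-/- PBS mouse 7. The count of 5 rested on single mice: it was 9 without mouse 1.1, 8 without mouse 1, 3 without mouse 2 or 8, 2 without mouse 3, 7, 1.2, 2.0 or 2.2, 1 without mouse 9 or 1.0, and 0 without mouse 2.1. It was 9 on log2(CPM + 1), which also changed the split of all called genes from 1010 higher and 995 lower to 1394 and 734. Of the further lists, 18 of 33 genes of myelin and mature oligodendrocytes, 5 of 12 of lipid synthesis, 5 of 9 transcription factors and 2 of 12 precursor genes were called in the same direction, 0 of 10 genes of newly formed oligodendrocytes were, and none in any of these lists was called in the other. Of the markers of other cells, 7 of 12 dopamine neuron genes and 6 of 8 genes of meninges and vascular fibroblasts were also called in this direction, and 7 of 12 medium spiny neuron genes in the other (against 6.16% of all genes), and their part in the myelin result was not tested. Between the genotypes the region gap of none of the 9 differed past the threshold (limma, 0 genes in all, 0%, with 902 at an unadjusted p under 0.05; 0 genes with edgeR). The estimates were on 1 side: the accumbens minus VTA difference was more negative in Vdr-/- mice for all 9 genes, from -0.22 for Ermn to -0.43 for Opalin on the log2 scale (limma, adjusted p = 0.879 for Opalin and 0.881 for Ermn), and 8 of the 9, all but Ermn, had an unadjusted p under 0.05. The 9 genes varied together across libraries (median Pearson's r of pairs 0.846 in the accumbens and 0.923 in the VTA), so these estimates do not count as 9 separate tests.

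With morphine, myelin genes were lower in the VTA. The deposited VTA table of each genotype has 3 morphine but only 2 PBS libraries, as mouse 3 (wild-type) or mouse 8 (Vdr-/-) is not in it. In RPKM, mouse 3 was the lowest wild-type PBS library of the VTA for all genes but Opalin. Mouse 8 was the lowest of its group for Mobp, Mog, Mal, Mag, Cnp and Opalin (9.15 against 13.9 and 13.00 for Opalin). It was the highest for Mbp, Ermn and Cldn11. The log2 changes given for each genotype separately leave these 2 libraries out. In Vdr-/- mice, normalized counts of Opalin were 767 and 708 with PBS and 351, 257 and 263 with morphine. Those of Mal were 11936 and 11794 with PBS and 7013, 6026 and 6637 with morphine, and those of Ermn 2316 and 2380.1 with PBS and 2400.3, 2183 and 2202 with morphine. The injections did not overlap for Opalin or Mal and overlapped for Ermn. In these mice 8 genes, all but Ermn, fell, against 5.28% of 16364 genes called lower. The log2 change was -1.36 ± 0.139 (SE), adjusted p = 0.00644 for Opalin, -0.86 ± 0.0688 (SE), adjusted p = 0.00461 for Mal, -0.77 ± 0.0654 (SE), adjusted p = 0.00461 for Cnp and -0.45 ± 0.0796 (SE), adjusted p = 0.0212 for Mbp (limma, 3 mice against 2). Mog, Mobp and Mag fell by 0.77, 0.76 and 0.76 and Cldn11 by 0.45 on the log2 scale, and Ermn had a log2 difference of -0.06 (95% interval -0.19 to 0.08, adjusted p = 0.558). The groups did not overlap for these 8 genes, against 24.7% of all genes with the morphine group lower without overlap. These calls depended on 1 PBS library: without Vdr-/- PBS mouse 7, when the remaining PBS library was taken to vary like the morphine group, 0 of the 9 and 0 genes in all were called. Mbp was also lost without Vdr-/- PBS mouse 9 or morphine mouse 2.2. With all 3 PBS mice, reads scaled together, 8 were called, and 4 (Mog, Mag, Cnp and Opalin) in a fit of all 12 VTA libraries.

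In wild-type mice none of the 9 was called in the VTA (591 genes in all, 3.65%), although all 9 had an unadjusted p under 0.05 and their median log2 difference was -0.76, as in Vdr-/- mice. Normalized counts of Opalin were 531 and 686 with PBS and 266, 408 and 313 with morphine, and those of Mbp 89767 and 96309 and 42195, 72413 and 48554. For both genes mouse 1.1, the middle of the 3 morphine values as listed, stood between the PBS libraries and the other morphine libraries. The log2 difference was -0.90 ± 0.195 (SE), adjusted p = 0.0591 for Opalin, -0.91 ± 0.232 (SE), adjusted p = 0.0828 for Mag and -0.63 ± 0.258 (SE), adjusted p = 0.199 for Mal (limma), and the groups did not overlap for 8 of the 9 genes (Mal being the exception), against 23.0% of all genes. Without mouse 1.1 all 9 were called. DESeq2 on the recovered reads called 6, a fit with all 3 PBS mice also 6, and a fit of all 12 libraries 8.

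When the genotypes were pooled over 12 VTA libraries, a comparison added after the single ones had been seen, all 9 genes fell with morphine, against 15.6% of 16240 genes called lower. Opalin changed by -1.04 ± 0.134 (SE), adjusted p = 0.000542 on the log2 scale (limma, 6 mice against 6), Mag by -0.78 ± 0.117 (SE), adjusted p = 0.00106, Mbp by -0.62 ± 0.108 (SE), adjusted p = 0.00205 and Ermn by -0.40 ± 0.0977 (SE), adjusted p = 0.00971. For Ermn the separate comparisons gave -0.74 in wild-type mice (adjusted p = 0.0824, limma, not called) and -0.06 in Vdr-/- mice. The median of the 9 in the pooled comparison was -0.67, against 0.00 over all genes. All 9 were called with each library left out in turn, with edgeR, without the filter, on log2(CPM + 1) and after each library's trend with exon length had been removed. Of the further genes of myelin and mature oligodendrocytes 29 of 33 fell, among them Tmem125 (-1.09, adjusted p = 0.000762), Pllp, a proteolipid of myelin (-1.01, adjusted p = 0.000216), and Gjb1 (-0.97, adjusted p = 0.000471). All 9 oligodendrocyte transcription factors fell, with Sox10 at -0.78, Myrf at -0.54 and Olig1 at -0.43. Of 12 genes of lipid synthesis 7 fell, led by Aspa (-0.86), which supplies acetate for myelin lipids, and Gal3st1 (-0.67), which makes sulfatide. Among newly formed oligodendrocyte genes 3 of 10 fell (Enpp6 -0.89, Bcas1 -0.67 and Nkx2-2 -0.36), and among precursor genes 2 of 12 (Matn4 -0.25 and Neu4 -0.21). Separately in Vdr-/- mice, 22 of the 33 further myelin genes, 6 of the 12 lipid genes, 5 of the 9 transcription factors and 1 newly formed oligodendrocyte gene (Bcas1) fell, against 5.28% of all genes called lower. In these mice 2 precursor genes, Gpr17 (0.45) and Xylt1 (0.24), rose, against 4.74% of all genes called higher. In wild-type mice 6, 3, 1 and 1 genes of these 4 lists fell, and 0 of 12 precursor genes were called. For comparison, 3.65% of 16187 genes were called in wild-type mice in either direction, and a count of 1 rests on a single gene.

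Other measures moved with these VTA results. The 12 dopamine neuron genes summed to 2908 to 3595 CPM in wild-type PBS, 284 to 759 in wild-type morphine, 716 to 2789 in Vdr-/- PBS and 792 to 1525 in Vdr-/- morphine libraries, and 11 of 12 fell with morphine over both genotypes. Of 12 microglia genes 11 fell (summed CPM 381 to 454 and 319 to 429 with PBS, 231 to 257 and 250.3 to 283 with morphine). Of 12 astrocyte genes 5 fell and 1 rose (15.6% of all genes were called higher), and of 7 Schwann cell genes 2 fell. The rank correlation of expression with exon length across genes was taken relative to the median of the region's other libraries. It was positive in all 12 morphine libraries of both regions (0.00757 to 0.159) and negative in 11 of 12 PBS libraries, with wild-type PBS mouse 2 of the accumbens lowest (-0.317). Whether this trend belongs to the injection or to the handling of the libraries was not tested. With that trend removed, 8 genes fell in the VTA of Vdr-/- mice and 9 over both genotypes. The part of the cell type markers in the myelin result was not tested.

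**Figure D3:**
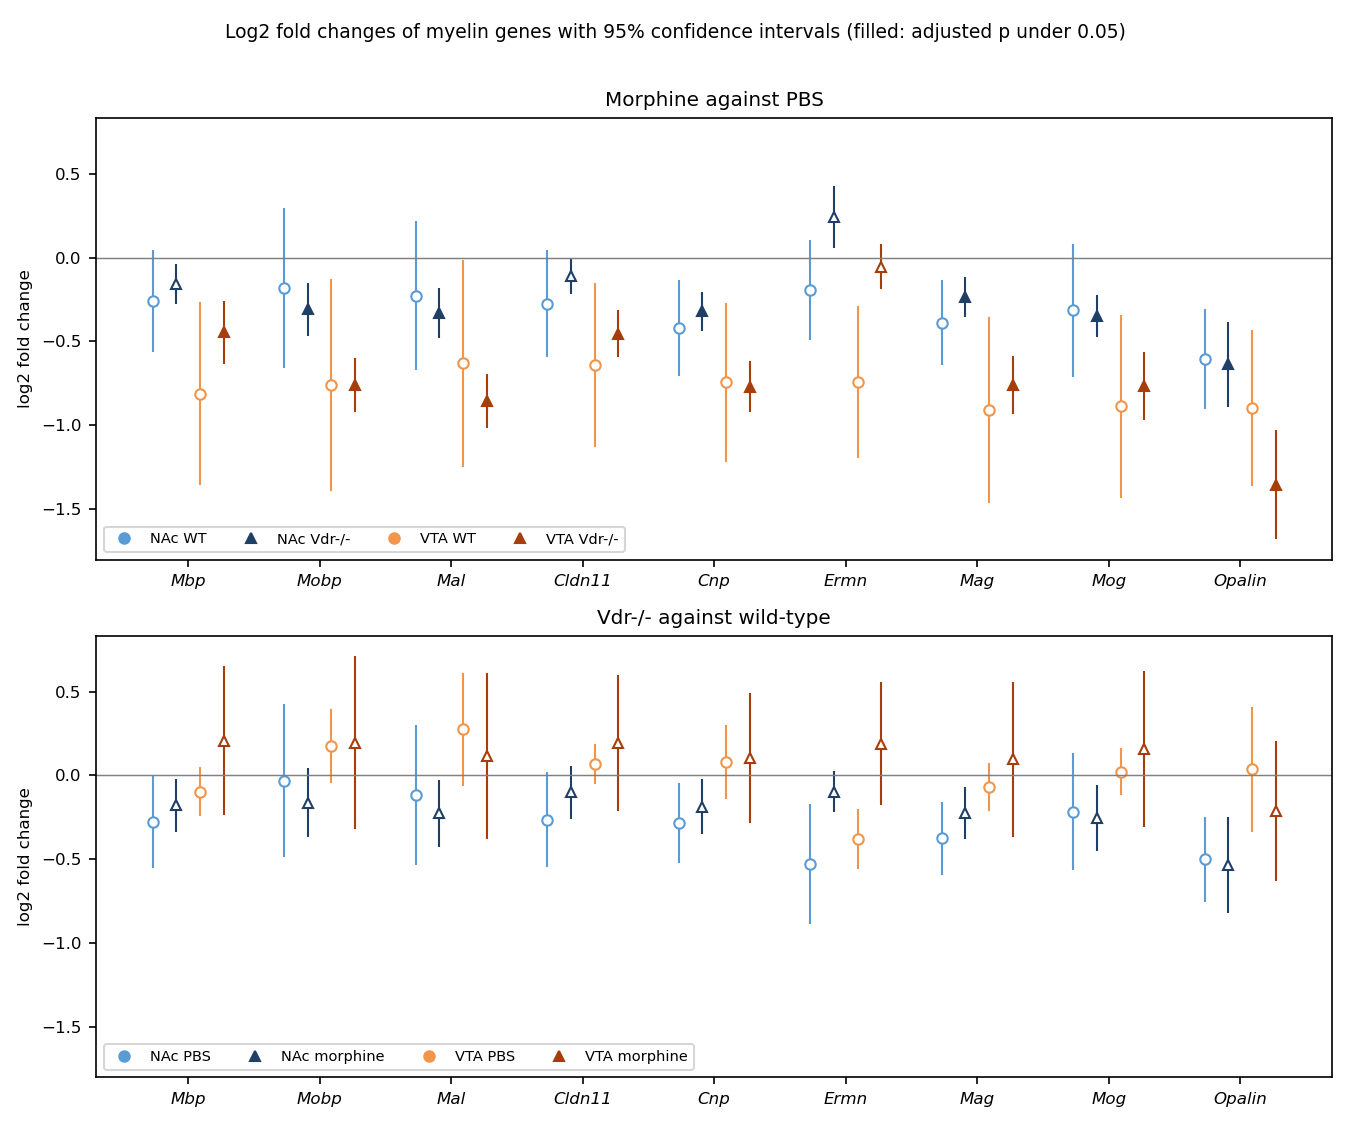
Log2 change of each myelin gene with morphine, and log2 difference of Vdr-/- from wild-type mice, in each region, with 95% intervals. Filled symbols passed the threshold. For each gene and genotype the estimate for morphine in the VTA is below that in the accumbens, and Ermn in Vdr-/- mice is nearest to 0 in the VTA (-0.06).

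In the accumbens 6 of the genes were called lower with morphine in Vdr-/- mice and none in wild-type mice, although all 9 wild-type estimates were below 0. Opalin had normalized counts of 249.7, 200.4 and 236 with PBS and 165, 142 and 133 with morphine in Vdr-/- mice, and Ermn 659.9, 843 and 664 and 867, 851 and 829. The groups did not overlap for Opalin, while for Ermn mouse 8 lay within the range of the morphine libraries and mice 7 and 9 below it. The 6 were Opalin (-0.64 ± 0.116 (SE), adjusted p = 0.00373), Mog (-0.35 ± 0.0572 (SE), adjusted p = 0.00208), Mal (-0.33 ± 0.0678 (SE), adjusted p = 0.00666), Cnp (-0.32 ± 0.0532 (SE), adjusted p = 0.00225), Mobp (-0.31 ± 0.0717 (SE), adjusted p = 0.0124) and Mag (-0.23 ± 0.0552 (SE), adjusted p = 0.0135; limma, 3 mice against 3). This compares with 9.13% of 15820 genes called lower. The groups did not overlap for 8 of the 9 genes, against 19.4% of all genes. Mbp (-0.16, adjusted p = 0.0674, limma) and Cldn11 (-0.11, adjusted p = 0.151) were not called, and neither was Ermn, whose difference was of opposite sign (0.24, 95% interval 0.06 to 0.43, adjusted p = 0.0674). On log2(CPM + 1) or without Vdr-/- PBS mouse 8, Ermn was called higher. Mobp and Mag were lost without Vdr-/- PBS mouse 9, and Mobp without morphine mouse 2.2. In a fit of all 12 accumbens libraries 1 gene was called, Opalin. The share of all called genes that were higher moved with the scaling, from 1573 higher and 1445 lower to 2119 and 1052 on log2(CPM + 1).

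In wild-type mice none of the 9 was called in the accumbens (128 of 15749 genes in all, 0.813%), with log2 differences from -0.18 for Mobp to -0.60 ± 0.129 (SE), adjusted p = 0.0848 for Opalin (limma). Estimates were more negative than in Vdr-/- mice for Mag (-0.39 against -0.23), Cnp (-0.42 against -0.32), Mbp, Cldn11 and Ermn. They were less negative for Mobp (-0.18 against -0.31), Mal, Mog and Opalin. Every gene had a larger SE in wild-type mice. A fit of all 12 accumbens libraries called 3 of the genes in wild-type mice. The groups did not overlap for 3 of the genes, Mag, Cnp and Opalin, against 13.2% of all genes. Over both genotypes 4 genes fell with morphine (9.95% of 15786 genes called lower): Opalin (-0.62 ± 0.0898 (SE), adjusted p = 0.000978), Cnp (-0.37 ± 0.0694 (SE), adjusted p = 0.00402), Mag (-0.31 ± 0.0635 (SE), adjusted p = 0.00634) and Mog (-0.33 ± 0.0953 (SE), adjusted p = 0.0308; limma, 6 mice against 6). Without wild-type PBS mouse 3 the count was 7, with Mbp, Mal and Cldn11 added, and Mbp was added without wild-type mouse 2 or 1.1. Mog was lost without Vdr-/- mouse 7, 9, 2.0, 2.1 or 2.2 or wild-type mouse 1.0 or 1.2. Of 33 further myelin genes 8 fell, among them Pllp (-0.51), Adamts4, a matrix protease (-0.42), and Gjb1 (-0.40). Lipid synthesis genes went both ways, with Gamt (-0.40) and Aspa (-0.37) lower and the desaturases Scd1 (0.38) and Fads1 (0.17) higher. Sox10 was the only one of 9 transcription factors to fall (-0.39), 1 of 10 newly formed oligodendrocyte genes rose (Frmd4a, 0.25), and 2 of 12 precursor genes rose (Sox6, 0.65, and Gpr17, 0.24). For comparison, 9.87% of all genes were called higher, so these rises of 1 or 2 genes a list, and the fall of 1 of 9 transcription factors, are close to the background. In Vdr-/- mice separately, 3 of the 33 fell, a share like that of all genes (9.13%), and 1 rose, while 4 of 12 lipid genes and 2 of 12 precursor genes rose, against 9.94% of all genes called higher. Markers of other cells moved with the injection in the accumbens too: 8 of 8 genes of meninges and vascular fibroblasts rose over both genotypes (summed CPM 43.2 to 45.6 and 45.8 to 50.2 with PBS, 56.6 to 102 and 83.1 to 113 with morphine), 10 of 12 medium spiny neuron genes fell, 9 of 12 microglia genes fell, and 5 of 12 astrocyte genes rose while 1 fell. Their part in the myelin result was not tested.

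Between the genotypes few differences passed the test. In the accumbens with PBS none of the 9 was called between Vdr-/- and wild-type mice (11 of 15933 genes in all, 0.0690%), although all 9 differences were below 0, from -0.03 for Mobp to -0.53 ± 0.152 (SE), adjusted p = 0.460 for Ermn (limma). With morphine again none was called (30 of 15638 genes, 0.192%), with Opalin at -0.53 ± 0.132 (SE), adjusted p = 0.268. Normalized counts of Opalin with PBS were 357, 373 and 329.7 in wild-type and 273, 219.5 and 257 in Vdr-/- mice, and with morphine 203, 214 and 161 and 149.5, 128 and 120.1. The genotypes did not overlap for Opalin under either injection, and the same held for 6 of the 9 genes with PBS (against 9.68% of all genes) and 6 with morphine (against 7.39%). Over both injections Opalin was the one gene called lower in Vdr-/- mice (-0.52 ± 0.0898 (SE), adjusted p = 0.0362, limma, 6 mice against 6), against 0.272% of 15786 genes called lower. This call was lost without wild-type PBS mouse 1, any of the Vdr-/- PBS mice, wild-type morphine mouse 1.0 or 1.1, or Vdr-/- morphine mouse 2.1 or 2.2, while the count was 3 without wild-type PBS mouse 2 (Mag and Ermn added) and 2 without wild-type PBS mouse 3 (Mag added). Of the 33 further myelin genes 3 were lower in this comparison, Pllp (-0.41), Tmem88b (-0.39) and Car2, a carbonic anhydrase (-0.32), and of 12 lipid genes Aspa was (-0.44). The median over the 33 was -0.24, like that of the 9, against 0.01 over all genes.

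Some lists of markers of other cells lay mostly to 1 side of 0 in the same comparisons of the accumbens, not all of them under both injections, with none of the genes named here called. With PBS, 12 of 12 medium spiny neuron genes (median log2 difference -0.18), 12 of 12 microglia genes (-0.14) and 9 of 10 endothelial genes (-0.34) were below 0 in Vdr-/- mice, and 10 of 10 pan-neuronal genes (0.16) and 8 of 10 genes of cortical excitatory neurons (0.25) above it, beside a median of -0.28 for the 9 myelin genes. With morphine, 12 of 12 medium spiny neuron genes were again below 0 (-0.17) and 8 of 8 genes of meninges and vascular fibroblasts above it (0.38), while microglia (5 of 12 below 0) and endothelial genes (6 of 10) lay on both sides, and the median of the 9 was -0.19. Over both injections the medians were -0.19 for medium spiny neuron and endothelial genes and 0.24 for genes of cortical excitatory neurons, against -0.24 for the 9. The part of these cells in the myelin differences was not tested.

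In the VTA the 9 genes lay on both sides of 0 between the genotypes with PBS, and none was called (64 of 16425 genes in all, 0.390%). Ermn had the largest difference, with normalized counts of 3359, 3738 and 3211 in wild-type and 2482, 2898 and 2551 in Vdr-/- mice (-0.38 ± 0.0770 (SE), adjusted p = 0.121, limma). It was the only one of the 9 whose groups did not overlap with the Vdr-/- group lower, against 10.7% of all genes, and it was called without Vdr-/- PBS mouse 8 and by DESeq2. For the other 8 the log2 differences ran from -0.10 (Mbp) to 0.28 (Mal). With morphine none was called (10 of 16029 genes, 0.0624%) and differences ran from -0.21 (Opalin) to 0.21 (Mbp), with wide intervals (-0.23 to 0.65 for Mbp). The median of the 9 with morphine, 0.16, rested on single wild-type libraries, as it was -0.01 without mouse 1.0, 0.06 without mouse 1.2 and 0.39 without mouse 1.1. Over both injections none was called either (129 genes in all, 0.794%), and 1 (Cldn11, higher) without wild-type morphine mouse 1.1.

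The change with morphine was not shown to differ between the genotypes. In each region 0 of the 9 and 0 genes in all (0%) were called in the test of genotype by injection with limma and with edgeR, while 916 genes in the accumbens and 1739 in the VTA had an unadjusted p under 0.05. Ermn had the largest of these differences among the 9, 0.43 (95% interval 0.06 to 0.80, adjusted p = 0.828) in the accumbens and 0.57 (0.14 to 1.00, adjusted p = 0.349, limma) in the VTA. For Opalin they were -0.03 (-0.42 to 0.36) and -0.25 (-0.83 to 0.34). The median of the 9 in the VTA, 0.13, was -0.04 without wild-type morphine mouse 1.0 and 0.35 without mouse 1.1.

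**Figure D4:**
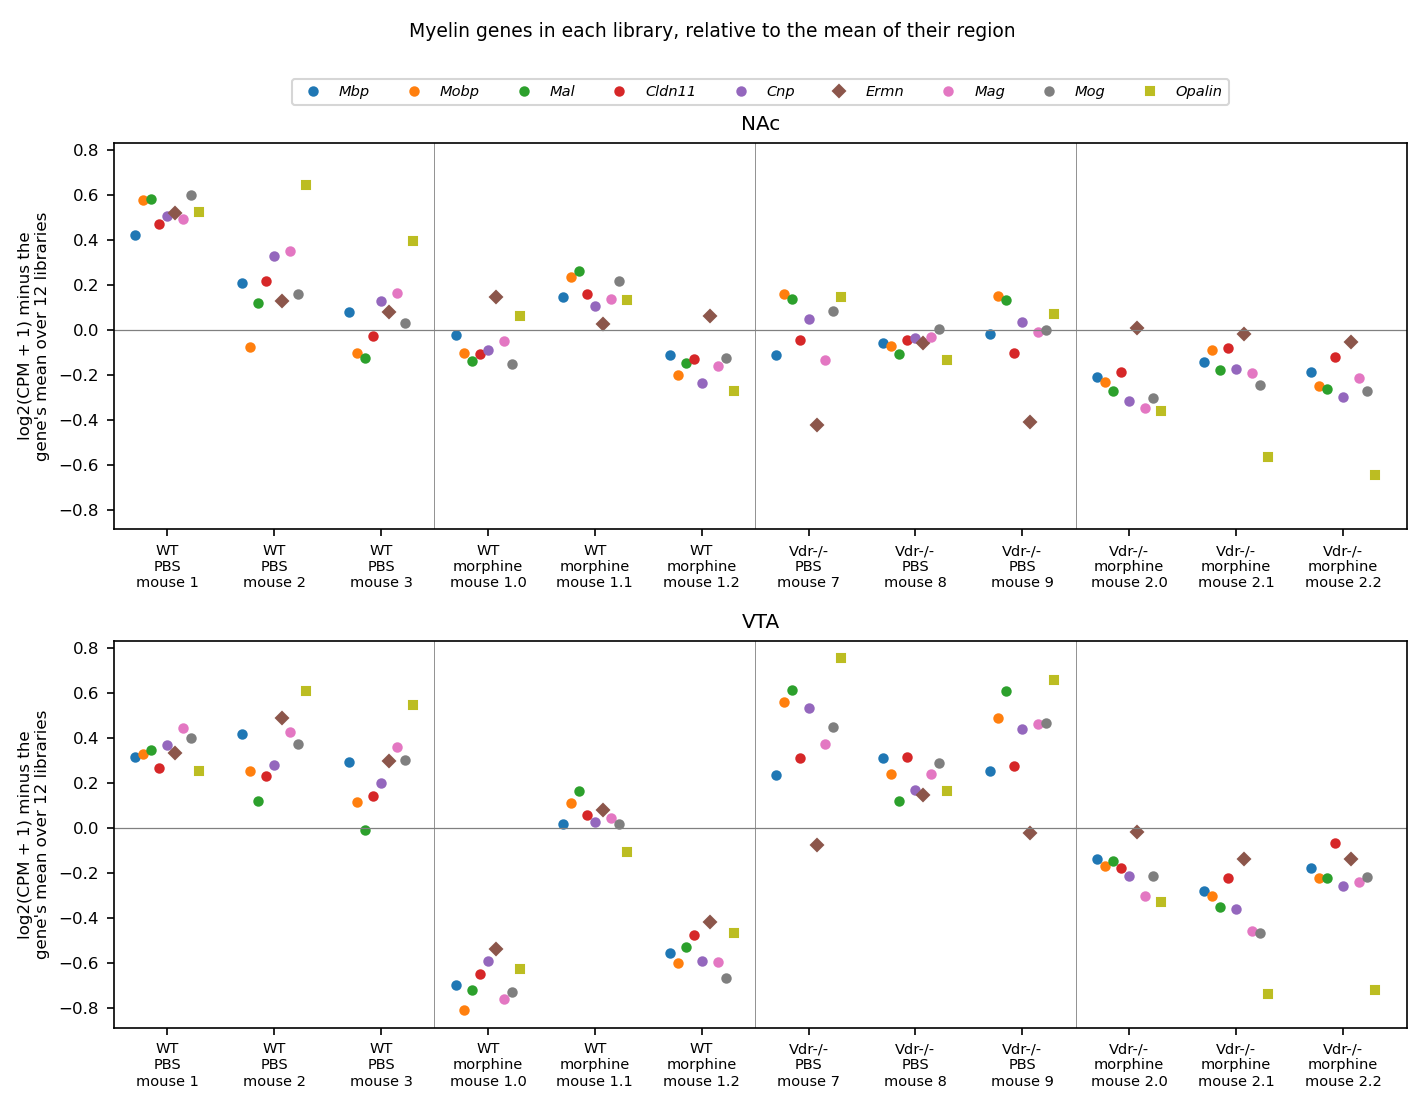
Deviation of each myelin gene from its mean over the 12 libraries of its region, in log2(CPM + 1), for every mouse, accumbens above and VTA below. Most genes of a library lie on the same side of 0, Ermn (diamonds) is below the others in Vdr-/- PBS mice 7 and 9 of both regions, and Opalin (squares) is lowest in the Vdr-/- morphine mice of the accumbens.

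Across libraries the 9 genes varied together, and less so in Ermn. Over the 12 accumbens libraries Pearson's r of log2(CPM + 1) between pairs of the 9 had a median of 0.846 (0.228 to 0.980 over 36 pairs), and over the 12 VTA libraries a median of 0.923 (0.611 to 0.993). For the 8 pairs with Ermn the medians were 0.413 and 0.773. Libraries share group, mouse and scaling, so these values are descriptions. As the 9 genes vary together, their agreement in sign within a comparison is not that of 9 separate tests. Among the genes whose profile was most like the mean of the 9, by the mean of r in the accumbens and in the VTA over 13466 genes, were Fth1, a ferritin subunit (0.953), Bcas1 (0.953), Myo1d (0.952), Gltp, a glycolipid transfer protein (0.947), Slain1 (0.947), Olfml1 (0.943), Rnf13 (0.943), Gatm, an enzyme of creatine synthesis (0.940), and Wscd1 (0.938). In the accumbens alone the highest values included those of Olfml1 (0.948) and Cish (0.946), and in the VTA alone the 3 highest were those of Sept4 (0.991), Efhd1 (0.989) and Myo1d (0.986). Cish, high in the accumbens, had an r of 0.272 in the VTA.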

How the data were processed

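The authors trimmed reads of 101 bp with Trimmomatic 0.36, aligned them to the mouse genome (GRCm38, GENCODE annotation) with STAR 2.4.2a, which also counted reads per gene, and normalized with DESeq2 within each pairwise comparison. CASAVA 1.8 is named in the submitters' processing notes. The 8 deposited tables hold signal values, which are normalized counts (reads divided by a size factor), in 46 columns for 24 libraries. Whole reads were recovered by dividing each column by the value of 1 read: 100% of values came out whole within 0.01, and the 22 libraries present in 2 tables gave the same reads in both (0 genes differed). The 9 genes, the further lists (16 lists, 183 genes) and the tests were chosen with earlier results of these data known.

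Each table was tested with limma 3.58.1 (R 4.3.3; lmFit, eBayes with a mean trend) on log2(value + 1), for genes whose mean value reached 10, with Benjamini-Hochberg adjustment over all genes tested and a threshold of 0.05. The pseudocount makes fold changes of low genes smaller. Comparisons across tables used the recovered reads, scaled together by median ratios, and NAc against VTA had the mouse as a block, since both regions carry the same mouse number. DESeq2 1.42.0 and edgeR 4.0.16 on recovered reads, log2(CPM + 1), a pseudocount of 10, quantile normalization, other filters, each library left out, all 12 libraries of a region in 1 fit and removal of each library's trend with exon length (loess, span 0.3) were tried as alternatives. The last 2, and the 4 comparisons over both genotypes or both injections, were chosen after seeing the data. RPKM were computed from recovered reads over the combined length of all annotated exons of a gene (GENCODE annotation, 30204 of 30270 genes matched). That length can exceed the length of the transcript expressed. Scripts were tested on simulated data. In Python 3.11.15, numpy 2.4.6 and pandas 2.3.3 were used for exact tests, and matplotlib 3.10.9 for figures.

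Mice are the replicates. Named genes are the 9, at most 4 called genes per further list and comparison with the largest change, and the genes with the most similar profile (10 over both regions, 3 in each), of which 1 is not reported here. No library was left out by choice: each VTA table that compares the injections has 2 PBS libraries, and the others entered the fits across tables. No replicate pair (24 pairs) differed by less than sampling noise (chi-square per degree of freedom 3.99 to 34.4). The highest values, 32.9 and 34.4, were those of wild-type PBS mouse 2 of the accumbens with mice 1 and 3. Mice 1 and 3 of that group gave 9.68. The library of mouse 2 entered every comparison with wild-type PBS mice of the accumbens. Labels give no age or sex. Wild-type and Vdr-/- morphine mice with the same last digit in their number showed no positive correlation of deviations, and pairs with other digits were not compared.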

Additional observations from a re-analysis of the deposited data

Results flagged for a closer look

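The accumbens minus VTA difference of 5 myelin genes differed between mice given morphine and mice given PBS in a test of the difference itself (limma, mouse as block, 6 mice with each injection). It was higher with morphine by 0.40 on the log2 scale for Mbp (adjusted p = 0.0419), 0.43 for Mog (adjusted p = 0.0222), 0.46 for Mag (adjusted p = 0.0186), 0.41 for Opalin (adjusted p = 0.0401) and 0.32 for Cldn11 (adjusted p = 0.0360). Because the accumbens is lower for these genes, the higher difference means a smaller gap between the regions. All 5 calls were lost without mouse 2.1, and 9 genes were called without mouse 1.1.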

How the results depend on the processing

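Over all 9 genes and 17 comparisons, differences past the threshold were recomputed 287 times under other settings (0 reversed, 15 no longer past it) and 412 times with 1 library or mouse left out (0 reversed, 60 no longer past it). Of differences not past the threshold, 3 of 793 reversed and 36 passed it under other settings, and 52 of 974 reversed and 27 passed it with 1 library or mouse left out. The comparison of accumbens with VTA kept 9 genes called under every alternative, as did morphine against PBS over both genotypes in the VTA. Elsewhere the number of the 9 called changed as follows, and the cause was not tested. With DESeq2, 1 gene was called for morphine in the accumbens of wild-type mice, 6 for morphine in the VTA of wild-type mice and 1 between genotypes in the VTA with PBS, against 0 each with limma. With all 12 libraries of a region in 1 fit, 3 and 1 genes were called for morphine in the accumbens of wild-type and Vdr-/- mice (0 and 6 otherwise), and 8 and 4 in the VTA (0 and 8 otherwise). With all 3 PBS libraries, 6 were called in the VTA of wild-type mice. The region gap by injection gave 9 on log2(CPM + 1) and 2 without a filter, against 5.

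With 1 library left out, counts ran from 0 to 8 for morphine in the VTA of Vdr-/- mice (8 otherwise), 0 to 9 in the VTA of wild-type mice (0 otherwise), 4 to 7 in the accumbens of Vdr-/- mice (6 otherwise), 3 to 7 in the accumbens over both genotypes (4 otherwise), 0 to 3 between genotypes in the accumbens over both injections (1 otherwise), and 0 to 1 between genotypes in the VTA with PBS and over both injections (0 otherwise). These counts take both directions, and the 7 in the accumbens of Vdr-/- mice, without PBS mouse 8, included Ermn called higher. The region gap by injection gave 0 to 9 with 1 mouse left out. Signs turned for differences that were not called: between genotypes in the accumbens with PBS, Mobp ran from -0.16 to 0.20 and Mal from -0.26 to 0.087; over both injections Mobp ran from -0.16 to 0.016; with morphine in the accumbens Mobp in wild-type mice ran from -0.31 to 0.048 and Ermn over both genotypes from -0.0137 to 0.10. Signs also turned in the VTA: the median of the 9 ran from -0.01 to 0.39 between genotypes with morphine, from -0.01 to 0.08 with PBS, and from -0.04 to 0.35 for genotype by injection.

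Counts over all genes differed by over 1.5 times between DESeq2 and limma in the accumbens (63 against 11 between genotypes with PBS, 50 against 30 with morphine, 493 against 128 for morphine in wild-type mice) and in the VTA (278 against 64, 98 against 10 and 1366 against 591). With the exon length trend removed, 221 genes were called for morphine in the accumbens of wild-type mice. On log2(CPM + 1) the split of higher and lower calls moved for morphine in the accumbens (2119 and 1052 against 1573 and 1445 in Vdr-/- mice, 88 and 61 against 65 and 63 in wild-type mice, 2013 and 1092 against 1558 and 1570 over both), between genotypes in the VTA (41 and 15 against 42 and 22 with PBS, 58 and 56 against 50 and 79 over both injections) and between the regions (4827 and 7046 against 5663 and 6103).

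With the last digit of the mouse number as a replicate block, 0 of the 9 genes were called between genotypes with morphine, as without it, and genes in all were 19 against 30 in the accumbens and 4 against 10 in the VTA. Correlations of deviations between mice with the same last digit were -0.0183 to -0.0565 in the accumbens and -0.158 to -0.279 in the VTA, none of them positive. Pairs with other digits were not compared, so these values do not settle whether the mice were paired. NAc against VTA without the mouse block also gave 9. Opalin, with the fewest reads (80 to 1156 per library), has the largest counting error of the 9. With 2 or 3 mice per group, differences not called are not shown to be absent.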
